A study of Mus musculus with 4 samples.

Results

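The collagen genes of embryonic mouse skin were taken as every probe set whose platform gene symbol reads Col, a number, a, a number, with Col7a1 and Col17a1 left aside. The rule gave 80 probe sets of 40 genes, out of 45037 probe sets on the array besides its controls and 18193 named genes, and no probe set annotated with several genes was among them. They were grouped by structure into fibrillar collagens (21 probe sets, 11 genes), basement membrane collagens (15 probe sets, 8 genes), fibril-associated collagens with interrupted helices, or FACITs (24 probe sets, 9 genes), and the others (20 probe sets, 12 genes). The arrays, Affymetrix Mouse430_2, held RNA of whole skin, dermis and epidermis together, from 2 mutant and 2 control embryos at E14.5, 1 embryo each. The mutants were KRT14-Cre Ctnnb1(Ex3)fl/+, in which a keratin promoter drives Cre in the epithelium and Cre removes an exon of 1 Ctnnb1 allele, leaving a stabilised beta-catenin. The controls were littermates, whose own alleles the labels do not give, so what the groups share apart from stage is not known here. Dermal fibroblasts were not the cells in which the keratin promoter drives Cre, and in whole skin fewer cells of a type cannot be told apart from less RNA per cell.

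Collagens are chains that wind into a rope-like helix through long repeats with a glycine at every turn. Fibrillar collagens assemble into the fibrils that give dermis, tendon, bone and cartilage their strength, and FACITs sit on the surface of those fibrils. Type IV collagens form the sheet of the basement membrane under the epidermis and around vessels, nerve and muscle. The remaining collagens form beaded filaments, hexagonal nets or proteins that span the cell membrane. In skin most collagen is made by dermal fibroblasts, while keratinocytes, endothelium and Schwann cells contribute to basement membranes.

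Signals are the intensities that the authors deposited, on a linear scale set per array, and levels of different probe sets are not compared. Fold changes and tests are on the scale log2(signal + 7.71), where 7.71 was the percentile 25 of all values, which shrinks changes of dim genes. Probe sets with a mean signal of at least 31.1, the median of all, were tested with limma and called at an adjusted p of 0.05 or less. Array medians were 27.7 at the lowest. Across probe sets the log2 signals correlated with r = 0.984 between mutants, r = 0.982 between controls, and r between 0.962 and 0.968 across groups. Precision is limited by the number of arrays, since permuting 2 arrays against 2 gives a two-sided p of 0.333 at the least. The poly-A spikes were lower in mutants, so that on a scale set by their 12 probe sets every signal ratio, mutant over control, would be 1.16 higher on the log2 scale. With the offset this raised the log2 fold changes of tested collagens by 0.40 to 1.16, least for dim ones, and all changes below are relative to the whole array. Of the markers of the labelled tissue, the fibroblast genes Pdgfra and Lum and the keratinocyte genes Krt5 and Krt14 had signals of at least 934 on every array. Mutant 1 stood apart by cartilage genes. Of 15 cartilage markers that are not collagens, 11 were at least 4-fold higher in mutant 1 than in mutant 2 with the offset added. The summed signal of all 15 was 6812 in mutant 1 and 560 in mutant 2, against 357 in control 1 and 292 in control 2.

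On the whole-array scale the bulk collagens of the dermis differed little between mutant and control skin, while a few other collagens rose several-fold. Of 57 tested collagen probe sets, 5 were higher, 5 were lower and 47 did not pass (limma adjusted p), which is 17.5% called. Over all 22519 tested probe sets 7.03% were called, 4.1% higher and 2.93% lower. A dim probe set could pass the filter through 1 group alone, and among called collagens Col13a1 did so through its mutants and Col24a1 through its controls. Of the 48 collagen probe sets with both group means over the filter, 4 were higher and 4 lower, or 16.7%, against 5.76% of all 21135 such probe sets. With 1 probe set per gene, 5 genes rose and 2 fell of 35 tested, or 20%, against 8.74% of all genes. The median log2 fold change of the tested collagens was -0.03, and that of all tested probe sets was -0.01. Both mutants lay on 1 side of both controls for 37 of the 57, or 17 above and 20 below, where 54.3% of all tested probe sets did so, 26.6% above and 27.7% below. The probe sets that rose belonged to Col8a2, Col25a1, Col19a1, Col13a1 and Col11a1, and those that fell to Col24a1, Col1a2, Col6a2, Col4a5 and Col5a1. Col8a2, Col25a1, Col19a1 and Col24a1 passed in each fit that left out 1 array. The other 6 probe sets lost their call in at least 1 such fit, and Col5a1 in all 4. The authors' deposited table held 169 of the 45037 probe sets, changed at least 2-fold, and 0 of the 80 collagen probe sets. It rests on GCRMA values, Present calls and a parametric test at p 0.01 without correction. So short a list says little about 80 probe sets, and it is not set against the calls above.

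**Figure D1:**
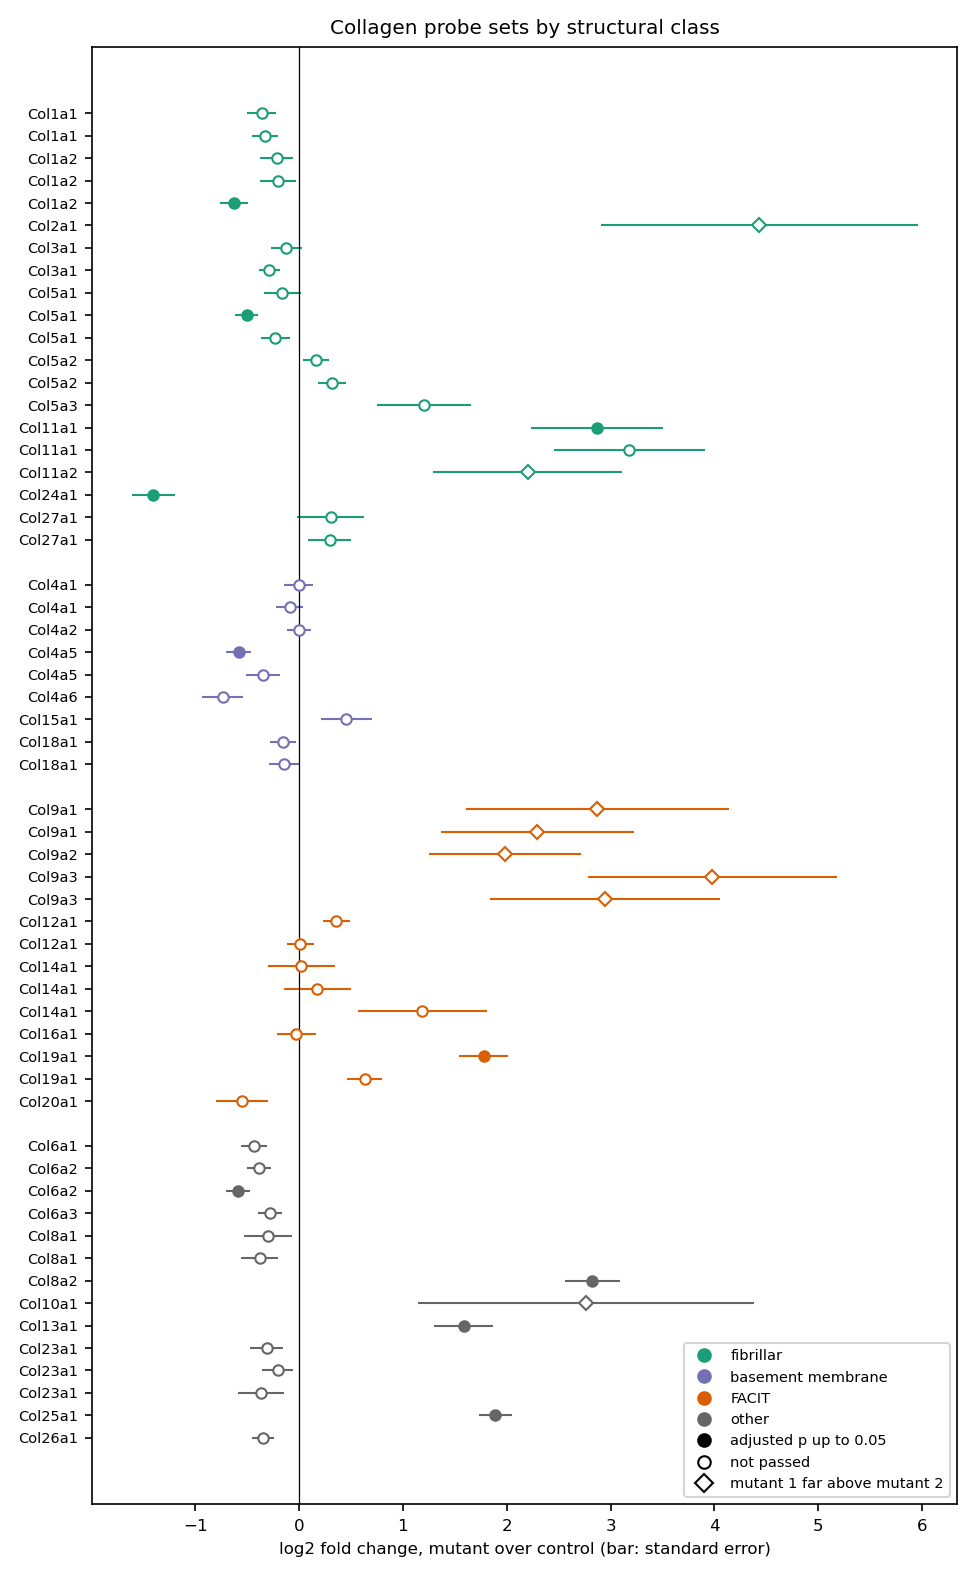
Log2 fold change, mutant over control, of the 57 tested collagen probe sets, 1 per line, with bars for the standard error (2 arrays per group). Filled points passed the adjusted p of 0.05. Diamonds mark probe sets at least 4-fold higher in mutant 1 than in mutant 2 with the offset added. The type I, III and VI genes lie slightly left of 0 (right of it on the poly-A scale), and the diamonds carry the widest bars.

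Type I and type III collagens, the main fibril proteins of skin, were slightly lower in mutants, and 1 of their 7 probe sets passed. The 7 had log2 fold changes from -0.63 to -0.12, with a median of -0.29, and all 7 turn positive on the poly-A scale, at 0.50 to 1.03. Col1a1, which encodes the alpha 1 chain of type I collagen, had signals of 2983 and 2283 in mutants, against 3418 and 3298 in controls. Both mutants lay below both controls, but the gene did not pass (log2 fold change -0.36, SE 0.14, limma adjusted p = 0.196). Col1a2, the partner chain, read 6530 and 5101 in mutants and 7382 and 6082 in controls by its brightest probe set, so its groups overlapped (log2 fold change -0.22, limma adjusted p = 0.481). A dimmer Col1a2 probe set read 317 and 308 in mutants, against 541 and 440 in controls, with no overlap. This probe set was called lower (log2 fold change -0.63, SE 0.13, limma adjusted p = 0.0414). It lost the call without control 1, mutant 1 or mutant 2, and without the filter (limma adjusted p = 0.0813). The same held with no variance trend (adjusted p = 0.0852) and with quantile normalization (adjusted p = 0.0515). The 3 probe sets of the gene thus disagree. Col3a1, the chain of type III collagen, averaged 7917 ± 972 in mutants and 8629 ± 1219 in controls (SD, n = 2 each), a log2 fold change of -0.12 (limma adjusted p = 0.679). Of 7 dermal fibroblast markers that are not collagens, 2 fell, Twist2, at 624.5 and 895 in mutants and 2083 and 2178 in controls, and Dpt, by 1.38 on the log2 scale, while the brightest, Vim and Lum, did not pass. Pdgfra, Thy1 and Vim had log2 fold changes above 0, and Pdgfra had both mutants above both controls, at 2106 and 2290 in mutants and 1713 and 1987 in controls. Their list summed to 20689 in mutant 1 and 19802 in mutant 2, against 26382 in control 1 and 23622 in control 2, and its part in the collagen values was not tested.

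Of the type V collagens, which start fibrils and set their width, 1 of 6 tested probe sets fell and the others did not pass. Col5a1 fell by 0.50 (SE 0.11) on the log2 scale by the probe set that read 1028 and 902 in mutants and 1345 and 1395 in controls (limma adjusted p = 0.0438). The call was lost whichever array was left out, without the filter (limma adjusted p = 0.0881) and with no variance trend (adjusted p = 0.109). The log2 fold change turns to 0.64 on the poly-A scale. The brightest Col5a1 probe set read 2233 and 1677 in mutants and 2471 and 1896 in controls, and did not pass (log2 fold change -0.16, limma adjusted p = 0.656). Col5a2, the second main chain, averaged 4378 ± 531 in mutants and 3897 ± 164 in controls (SD, n = 2 each; log2 fold change 0.16, limma adjusted p = 0.483). Col5a3, a minor chain, read 182 and 170 in mutants and 129 and 38.9 in controls. Both mutants were above both controls, but control 1 was 3.32-fold above control 2, and the gene did not pass (log2 fold change 1.20, SE 0.45, limma adjusted p = 0.176).

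Col11a1 and Col24a1 were the fibrillar genes with the largest called changes, in opposite directions. Col11a1 encodes a chain of the type XI collagen that nucleates fibrils, chiefly in cartilage but also in other connective tissues. Its brighter probe set read 1647 in mutant 1 and 476 in mutant 2, against 195 in control 1 and 66.1 in control 2. Both mutants lay above both controls, yet the 2 arrays of each group were far apart. The log2 fold change was 2.87 (SE 0.64, limma adjusted p = 0.0468). Without mutant 1, the array with the highest cartilage sum, the log2 fold change was 1.99, so mutant 2 by itself lay above the controls. In mutant 2 too, 10 of 15 cartilage markers lay above both controls, where 35.8% of all probe sets did. This fit therefore does not set cartilage aside, and the part of cartilage RNA in the Col11a1 values was not tested. The call was lost without control 2 (adjusted p = 0.102), at an offset of 1 (adjusted p = 0.0501), with a robust variance trend (adjusted p = 0.252), with no trend (adjusted p = 0.0890) and without the filter (adjusted p = 0.104). The other Col11a1 probe set, at 1511 and 394 in mutants and 153 and 38.5 in controls, had a log2 fold change of 3.18 (SE 0.73, limma adjusted p = 0.0513). Col24a1, a fibrillar collagen known from developing bone and cornea in mice, read 35.3 and 25.7 in mutants, against 87.8 and 97.6 in controls. Both mutants were well below both controls, and the gene fell by 1.40 on the log2 scale (SE 0.21, limma adjusted p = 0.0129). Its adjusted p lay between 0.0132 and 0.0401 when 1 array was left out. On the poly-A scale its log2 fold change was -0.41 and did not pass. Col27a1, a fibrillar collagen of cartilage, read 387 in mutant 1 and 181 in mutant 2, against 235 and 193 in controls, and did not pass (log2 fold change 0.30, limma adjusted p = 0.636).

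**Figure D2:**
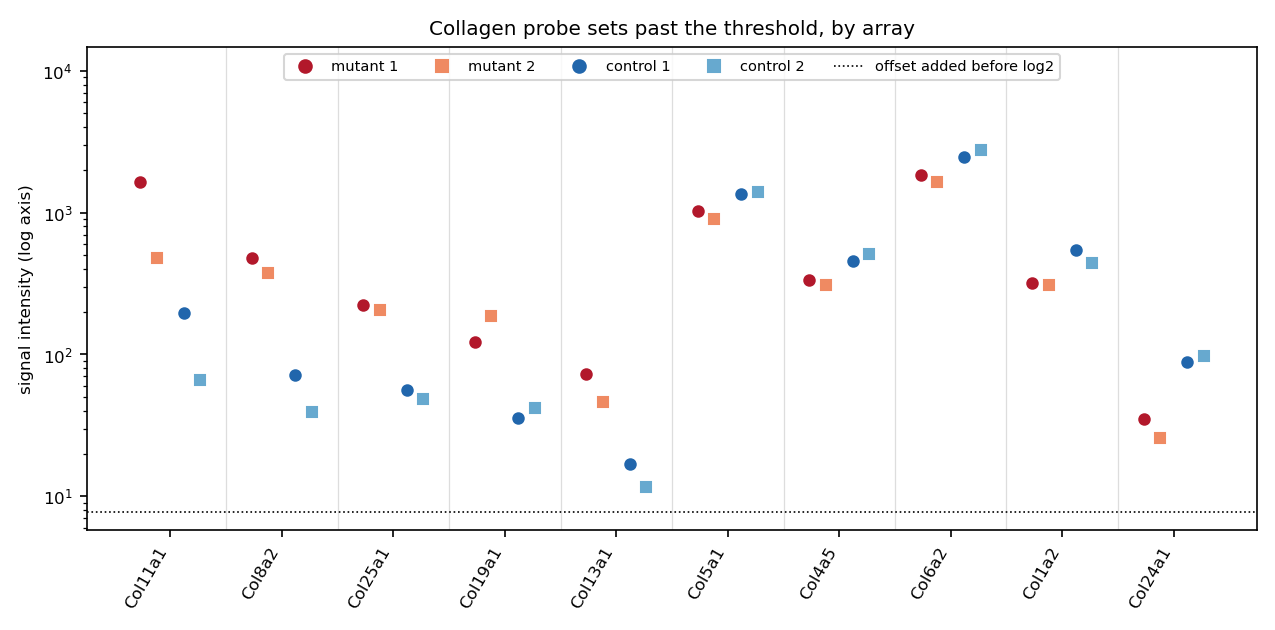
Signal intensity on a log axis of the 10 called collagen probe sets in each of the 4 arrays, ordered by fold change, with the offset as a dotted line. The mutants of Col8a2 and Col25a1 lie together and far above both controls, while those of Col11a1 lie apart from each other.

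Of type IV collagen, the network of basement membranes, 1 of 6 tested probe sets fell. The type IV genes lie in pairs, head to head on their chromosomes. The Col4a1 and Col4a2 chains, which occur in nearly all basement membranes, had overlapping groups and did not pass. Col4a1 averaged 2610 ± 265 in mutants and 2628 ± 385 in controls (SD, n = 2 each), with a log2 fold change of -0.01 (SE 0.14, limma adjusted p = 0.987). Col4a2 averaged 1026 ± 117 in mutants and 1024 ± 64.2 in controls (SD, n = 2 each), a log2 fold change of -0.0012 (SE 0.12, limma adjusted p = 0.997).

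Col4a5 and Col4a6, whose chains join in the basement membrane of the epidermis, were both lower in mutants on the whole-array scale. Col4a5 read 336 and 307 in mutants and 455 and 515 in controls by its brighter probe set. Both mutants lay below both controls, and the gene fell by 0.58 on the log2 scale (SE 0.12, limma adjusted p = 0.0390). The call was lost without control 2, mutant 1 or mutant 2, without the filter (limma adjusted p = 0.0744) and with no variance trend (adjusted p = 0.0829). The log2 fold change turns to 0.55 on the poly-A scale. Its dimmer probe set read 135 and 111 in mutants and 147 and 170 in controls, and did not pass (log2 fold change -0.35, limma adjusted p = 0.277). Col4a6 read 36.8 and 42.2 in mutants, against 76.2 and 65.9 in controls, also without overlap, and it did not pass (log2 fold change -0.74, SE 0.20, limma adjusted p = 0.0776). The keratinocyte markers Krt5, Krt14, Trp63, Cdh1 and Epcam, none of them collagens, had mutants below controls for all 5. They summed to 3182 in mutant 1 and 4652 in mutant 2, against 5929 in control 1 and 8378 in control 2. Of these 5 only Cdh1 passed, at a log2 fold change of -1.54 (limma adjusted p = 0.0233). Its call was lost without control 2, without the filter and with no variance trend. The part of keratinocyte RNA in the Col4a5 and Col4a6 values was not tested. Both genes are X-linked, and mutant 2 was the only array with a high signal of Xist, the transcript of the inactive X, at 3376 against 24.7 in mutant 1 and 15.7 and 10.1 in controls. The part of X dosage in their values was not tested.

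The RefSeq sequences upstream of this pair are shown because its 2 genes face away from each other, with starts 1343 bases apart in GRCm38.p6. Each line gives the 250 bases before the start, 5′ to 3′ on the gene's strand, at chrX:141475169-141475418 (plus strand) for Col4a5 and chrX:141474077-141474326 (minus strand) for Col4a6. Capitals mark CCAAT, a box bound by the factor NF-Y, on either strand, or the TCF and LEF core CTTTGA or CTTTGT, through which beta-catenin acts, on either strand. No overlap between motifs was found in them.
Col4a5: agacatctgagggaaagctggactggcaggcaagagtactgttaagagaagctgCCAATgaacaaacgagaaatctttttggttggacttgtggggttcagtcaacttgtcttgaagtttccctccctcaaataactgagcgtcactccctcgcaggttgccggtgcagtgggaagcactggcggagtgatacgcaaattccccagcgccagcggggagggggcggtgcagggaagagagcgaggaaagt
Col4a6: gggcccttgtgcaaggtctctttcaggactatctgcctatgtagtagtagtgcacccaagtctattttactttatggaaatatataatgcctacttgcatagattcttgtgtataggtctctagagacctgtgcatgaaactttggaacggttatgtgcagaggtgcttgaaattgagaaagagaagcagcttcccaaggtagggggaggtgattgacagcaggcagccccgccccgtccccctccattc
Col4a5 held 1 CCAAT box, 196 bases before its start, and no core motif was found in these letters for either gene. CCAAT stood in 33.8% of the 32851 upstream windows of this length in the RefSeq table, and in 32.4% of the 34 windows of collagen members, which covered 31 of the 40 genes.

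The third pair, Col4a3 and Col4a4, whose chains are known from kidney and lung, stayed under the filter on dim probe sets, and none of their 5 probe sets read above 19.1 on any array. Col15a1 and Col18a1 encode multiplexins, which carry sugar chains in basement membrane zones. Col18a1 averaged 702 ± 101 in mutants and 780 ± 13.4 in controls (SD, n = 2 each; log2 fold change -0.16, limma adjusted p = 0.520). Col15a1, found around vessels and muscle, read 145 and 108 in mutants and 112 and 71.6 in controls, with overlap (log2 fold change 0.45, limma adjusted p = 0.330). Endothelium also makes type IV and multiplexin chains. Its markers summed to 2900 in mutant 1 and 2977 in mutant 2, against 2444 in control 1 and 2338 in control 2. Of the 8, only Tek passed, with a rise, while the brightest, Emcn and Esam, did not. Log2 fold changes were above 0 for 5 of them and below 0 for 3, with Kdr at -0.17 and Cldn5 at -0.10. Smooth muscle and pericyte markers summed to 4372 in mutant 1 and 4186 in mutant 2, against 3543 in control 1 and 3314 in control 2. Of the 5 tested, Tagln rose and the brightest others, Acta2 and Pdgfrb, did not pass. Pdgfrb had both mutants below both controls (log2 fold change -0.42), and the other 4 log2 fold changes were above 0. Of 9 tested basement membrane probe sets, 1 was called, and the median log2 fold change was -0.14.

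Among FACITs that were not far apart between the mutants, Col19a1 rose and the others did not pass. Col19a1 is a rare FACIT known from muscle and from synapses of the brain. It read 123 and 187 in mutants, against 35.6 and 42.3 in controls. Both mutants were far above both controls, a log2 fold change of 1.78 (SE 0.23, limma adjusted p = 0.00828), and the adjusted p lay between 0.00312 and 0.01998 when 1 array was left out. A second Col19a1 probe set read 91.1 and 86.4 in mutants and 56.1 and 53.1 in controls, also without overlap, but with a smaller log2 fold change of 0.63 that did not pass (limma adjusted p = 0.0826). Col12a1, a FACIT of type I fibrils in dermis and tendon, averaged 1156 ± 158 in mutants and 896 ± 64.7 in controls (SD, n = 2 each; log2 fold change 0.36, limma adjusted p = 0.161). Its next probe set had a log2 fold change of 0.01, so the probe sets differ. Col16a1, a FACIT of dermal microfibrils, averaged 561 ± 144 in mutants and 564 ± 74.4 in controls (SD, n = 2 each; log2 fold change -0.03, limma adjusted p = 0.957).

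Col14a1, a FACIT of dense connective tissue, had controls further apart than its groups. Its signals were 1685 and 1584 in mutants, against 2384 in control 1 and 1090 in control 2. Both mutants fell between the controls, and the log2 fold change was 0.02 (SE 0.32, limma adjusted p = 0.982). Without control 1 the gene had a log2 fold change of 0.58 (adjusted p = 0.0362), and without control 2 one of -0.54 (adjusted p = 0.0702), so its sign depended on the control. It was -0.03 without mutant 1. Its other tested probe sets had control 1 above control 2 by 2.21-fold and 5.68-fold. Their log2 fold changes were 0.17 and 1.19, and neither passed (limma adjusted p = 0.805 and 0.315). Of the tested collagens, 7 probe sets of 4 genes (Col14a1, Col11a1, Col5a3 and Col2a1) had control 1 at least 2-fold above control 2 after the offset was added, and 0 had the reverse. Of all tested probe sets 1.07% had control 1 higher by that much on the same scale and 0.577% had control 2 higher. Markers of tendon summed to 1856 in mutant 1 and 1334 in mutant 2, against 583 in control 1 and 211 in control 2. Most of this sum was the tendon gene Tnmd, at 1419 and 1121 in mutants and 348 and 109 in controls. Mkx, another tendon gene, read 86.5 and 59.1 in mutants and 8.49 and 9.54 in controls, so that its controls ran the other way. Col14a1 had its mutants between the controls by its brightest probe set. By the dimmest one tested it read 159 and 114 in mutants and 125 and 21.9 in controls. Of 5 bone markers in the table, 4 were tested and Ibsp, Sp7, Alpl and Phex all rose, of which Ibsp, Alpl and Phex passed the filter only through the mutants, and the list summed to 1245 in mutant 1 and 650 in mutant 2, against 101 and 70.3 in controls. Ibsp, a bone matrix protein, read 741 and 321 in mutants, against 2.12 and 1.58 in controls. Phex lost its call without mutant 1 (log2 fold change 1.47), control 2 or the filter, and at offsets of 1 and 32. It also lost it with no variance trend or a robust one. Alpl lost its call without mutant 1 (log2 fold change 1.37) or the filter. Of the tendon markers Tnmd and Mkx rose and Fmod did not pass. Tnmd lost its call without the filter and with no variance trend or a robust one. Mkx passed the filter only through its mutant signals and was too dim to be tested without mutant 1. Whether tendon and bone cells share in the values of Col11a1, Col5a3 and Col14a1 was not tested.

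**Figure D3:**
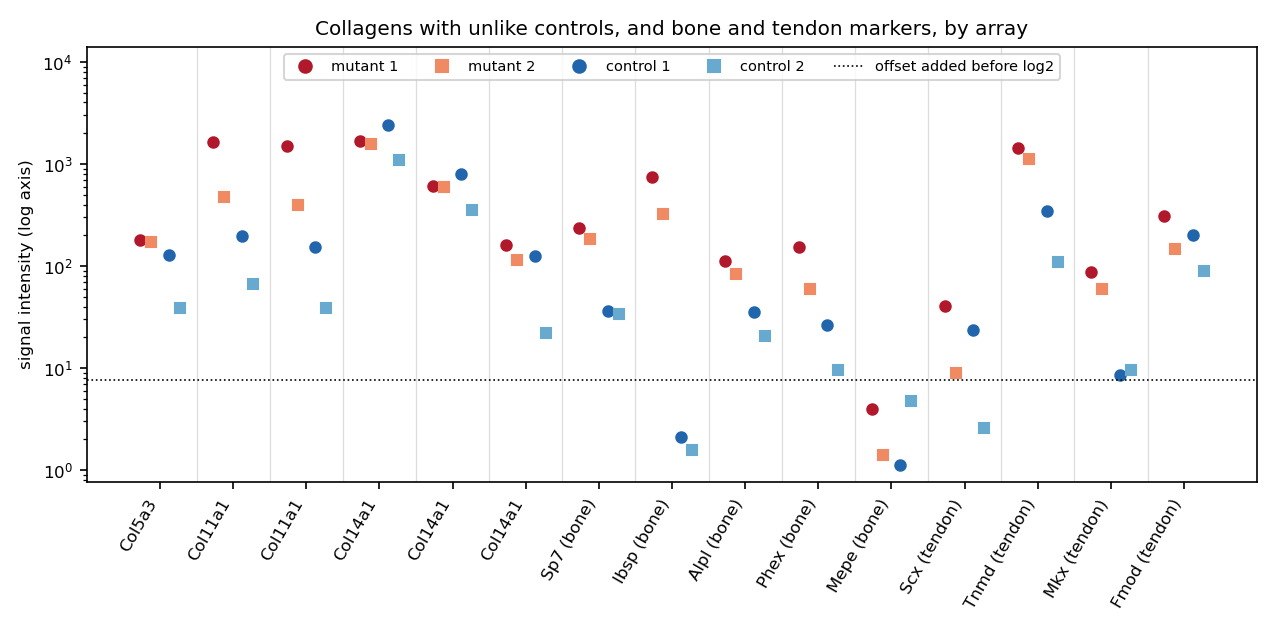
Signal intensity on a log axis in each of the 4 arrays for the tested probe sets of Col5a3, Col11a1 and Col14a1 and for the markers of bone and tendon, with the offset as a dotted line. Control 1 lies above control 2 in all 6 collagen columns. It does so too for the tendon genes Tnmd, Scx and Fmod and the bone genes Phex, Alpl, Sp7 and Ibsp. The tendon gene Mkx and the bone gene Mepe run the other way.

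The last FACITs were dim. Col20a1, described first in chick, read 31.6 and 20.5 in mutants and 38.6 and 43.9 in controls by its brightest probe set, and did not pass (log2 fold change -0.55, limma adjusted p = 0.2502). Of its other 3 probe sets, all under the filter, 2 also had both mutants below both controls. Col22a1, a FACIT of tissue junctions, was not tested, and its brightest probe set read 31.4 and 24.8 in mutants and 14.8 and 14.4 in controls, with no overlap.

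Type VI collagen, which forms beaded filaments around dermal cells, was lower in both mutants for each of its 3 main chains on the whole-array scale, though higher on the poly-A scale. Its 4 tested probe sets had log2 fold changes from -0.59 to -0.28, and 1 of them passed. Col6a1 read 2702 and 2254 in mutants and 3517 and 3178 in controls, a log2 fold change of -0.44 (SE 0.13, limma adjusted p = 0.0974). Col6a2 averaged 3089 ± 189 in mutants and 4049 ± 384 in controls (SD, n = 2 each) by its brightest probe set (log2 fold change -0.39, limma adjusted p = 0.105). Its other probe set, of a kind whose probes can bind related transcripts, read 1831 and 1636 in mutants and 2474 and 2742 in controls and was called lower (log2 fold change -0.59, SE 0.11, limma adjusted p = 0.0297). The call was lost without control 2, mutant 1 or mutant 2, without the filter (limma adjusted p = 0.0698) and with no variance trend (adjusted p = 0.0819). Col6a3 read 3271 and 2800 in mutants and 3713 and 3627 in controls (log2 fold change -0.28, limma adjusted p = 0.214). The rare chains Col6a4 and Col6a5 were not tested and read at most 19.5 on any array.

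The short chain collagen Col8a2 rose several-fold in mutant skin, with its mutants close together. Type VIII collagen forms hexagonal nets, best known from the cornea and from vessel walls. Col8a2 read 478 and 378 in mutants, against 71.9 and 39.1 in controls. Both mutants were far above both controls, at a mean of 428 ± 71.0 against 55.5 ± 23.2 (SD, n = 2 each), or 7.71-fold. The log2 fold change was 2.83 (SE 0.26, limma adjusted p = 0.00230), and it was 2.66 (adjusted p = 0.00179) without mutant 1. Over the 12 other fits on the whole-array scale, the gene passed in all 12, with log2 fold changes from 2.41 to 3.21. Col8a1, its partner chain, did not pass. It read 316 and 213 in mutants and 270 and 382 in controls, with overlap (log2 fold change -0.30, limma adjusted p = 0.502).

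The membrane-spanning collagens were split, with rises of Col25a1 and Col13a1 and no called change of Col23a1. Col25a1, needed in mice for motor axons to enter muscle, read 224 and 207 in mutants, against 56.4 and 48.8 in controls. The mutants agreed closely, and the log2 fold change was 1.89 (SE 0.16, limma adjusted p = 0.00160), with an adjusted p between 0.00100 and 0.00428 when 1 array was left out. A dimmer Col25a1 probe set, not tested, read 27.6 and 34.1 in mutants and 6.10 and 3.58 in controls. Col13a1, a membrane collagen of the nerve to muscle junction and of other adhesion sites, read 72.6 and 46.0 in mutants, against 17.0 and 11.7 in controls. It rose by 1.59 on the log2 scale (SE 0.28, limma adjusted p = 0.0235), lost the call without control 2 (adjusted p = 0.0523) or without the filter (adjusted p = 0.0675), and was too dim to be tested without mutant 1. Col13a1 passed the filter only through its mutant signals, as did 6 of the other tested collagen probe sets. Col23a1 read 125 and 125 in mutants and 143 and 174 in controls, and its 3 probe sets had log2 fold changes from -0.37 to -0.21, none of which passed. Skeletal muscle markers, given here because these genes are known from muscle, had log2 fold changes below 0 for all 7, with Ttn called lower and the brightest, Actc1 and Acta1, not passed. Ttn lost its call without control 1, control 2 or the filter, and with no variance trend or a robust one. They summed to 6107 in mutant 1 and 3646 in mutant 2, against 10762 in control 1 and 7711 in control 2. Schwann cell markers in the table, 4 genes with Erbb3 and Mbp the brightest, also lay below both controls in both mutants, and Erbb3 fell by 0.95 on the log2 scale, though it is 0.18 higher on the poly-A scale. Col26a1, an unusual collagen first found in testis and ovary, averaged 501 ± 29.8 in mutants and 639 ± 29.9 in controls (SD, n = 2 each), and did not pass (log2 fold change -0.35, limma adjusted p = 0.120).

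The upstream sequences of the 4 genes that rose with the mutants close together are shown so that the TCF and LEF core can be read in place. They are the RefSeq windows of 250 bases before each start in GRCm38.p6, 5′ to 3′ on the gene's strand, with the same motifs in capitals. The windows are chr4:126286544-126286793 (plus strand) for Col8a2, chr3:130180595-130180844 (plus strand) for Col25a1, chr1:24587438-24587687 (minus strand) for Col19a1 and chr10:61979109-61979358 (minus strand) for Col13a1.
Col8a2: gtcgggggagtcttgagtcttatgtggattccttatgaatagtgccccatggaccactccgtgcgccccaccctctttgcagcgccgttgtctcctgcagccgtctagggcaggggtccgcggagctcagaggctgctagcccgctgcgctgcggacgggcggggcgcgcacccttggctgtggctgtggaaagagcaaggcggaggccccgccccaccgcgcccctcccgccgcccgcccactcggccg
Col25a1: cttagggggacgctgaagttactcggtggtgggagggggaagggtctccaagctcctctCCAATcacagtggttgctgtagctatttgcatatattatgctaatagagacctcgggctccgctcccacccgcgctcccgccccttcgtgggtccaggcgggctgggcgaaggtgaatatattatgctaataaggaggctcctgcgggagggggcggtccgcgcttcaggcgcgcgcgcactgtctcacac
Col19a1: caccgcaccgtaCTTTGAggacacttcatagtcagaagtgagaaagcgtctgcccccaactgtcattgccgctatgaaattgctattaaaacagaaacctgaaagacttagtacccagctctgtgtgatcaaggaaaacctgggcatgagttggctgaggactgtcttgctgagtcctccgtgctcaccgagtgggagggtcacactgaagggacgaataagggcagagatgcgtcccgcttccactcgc
Col13a1: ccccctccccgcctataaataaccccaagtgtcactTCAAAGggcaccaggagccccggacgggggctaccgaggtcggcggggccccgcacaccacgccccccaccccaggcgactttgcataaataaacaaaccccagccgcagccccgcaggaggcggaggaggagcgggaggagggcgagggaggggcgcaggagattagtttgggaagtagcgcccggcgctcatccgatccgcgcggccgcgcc
Col19a1 held 1 CTTTGA, 238 bases before its start, and Col13a1 held 1 on the opposite strand, 214 bases before its start. None was found in the windows of Col8a2 and Col25a1, and Col25a1 held 1 CCAAT box. Of the 5 genes with a probe set that rose, Col13a1 included, 2 thus held CTTTGA or CTTTGT, a motif pair found in 27.6% of all windows and in 32.4% of collagen windows. CTTTGA alone stood in 13.8% of all windows and in 26.5% of collagen windows. CTTTGT alone went the other way, in 16.5% of all windows and 8.82% of collagen windows.

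A set of 8 collagen probe sets was far above in 1 mutant alone. These had a log2 signal at least 2 higher in mutant 1 than in mutant 2, as 0.12% of all probe sets did, and belonged to Col2a1, Col9a1, Col9a2, Col9a3, Col10a1 and Col11a2. Type II collagen is the fibril protein of cartilage, the type IX chains coat its fibrils, type XI shapes them, and type X is made by the enlarging chondrocytes of growth plates. Because this difference chose the members, it is given without a test. Col2a1 read 1948 in mutant 1 and 37.7 in mutant 2, against 12.5 and 1.71 in controls. Mutant 1 stood alone, and the same held for Col9a1, at 3261 in mutant 1 and 125 in mutant 2, against 75.5 and 89.6 in controls. Col9a3 read 888 and 37.2 in mutants and 5.91 and 4.15 in controls, and Col9a2 read 243 and 34.2 in mutants and 19.1 and 17.4 in controls. Col11a2 read 276 and 22.3 in mutants and 12.03 and 12.7 in controls. Col10a1 read 464 in mutant 1 and 0.553 in mutant 2, against 2.61 and 0.455 in controls, so that mutant 2 lay within the controls. Their log2 fold changes between the groups ran from 1.98 to 4.43, and the gap between mutants by which they were chosen sets their wide standard errors, so their test between groups is not read. The member nearest to the limit inside it was Col9a2, with a difference of 2.58, and the nearest outside was the Col11a1 probe set with 1.92.

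Mutant 2 also lay above both controls for 7 of these 8 probe sets, all but Col10a1, where 35.8% of all probe sets did so. Its excess over the control mean on the log2 scale was 1.72 for Col2a1, 1.82 for the brighter Col9a3 probe set, and between 0.57 and 0.98 for the others. The rule used the values of mutant 2 as well, so these are a description. Mutant 1 was above mutant 2 for all 15 cartilage markers that are not collagens, and mutant 2 was above both controls for 10 of them. Sox6 had both mutants below both controls, at 111.6 and 50.7 in mutants and 119.9 and 122 in controls. Matn1 read 1197 in mutant 1 and 8.85 in mutant 2, against 6.59 and 4.87 in controls, and Cnmd read 1686 and 87.5 in mutants, against 59.2 and 21.8 in controls. Acan, the main proteoglycan of cartilage, read 315 and 26.6 in mutants, against 15.7 and 4.04 in controls. Of the 15 markers, 6 lay under the offset in each control, 2 in mutant 2 and 0 in mutant 1. Sox9, a factor of cartilage and also of hair follicle epithelium, was high in both mutants, at 135 and 106 in mutants and 24.1 and 19.5 in controls. Matn4 was the other marker that passed, with 458 and 101 in mutants and 19.8 and 27.5 in controls (limma adjusted p = 0.0413). Like Sox9, it passed the filter only through its mutant signals. Its call was lost without control 1 or control 2. It was also lost at an offset of 32 (limma adjusted p = 0.0579) and without the filter (adjusted p = 0.0935). The same held with no trend (adjusted p = 0.0770) and with a robust variance trend (adjusted p = 0.140). Its difference between mutants, 2.10 on the log2 scale, also met the limit used for the collagens.

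**Figure D4:**
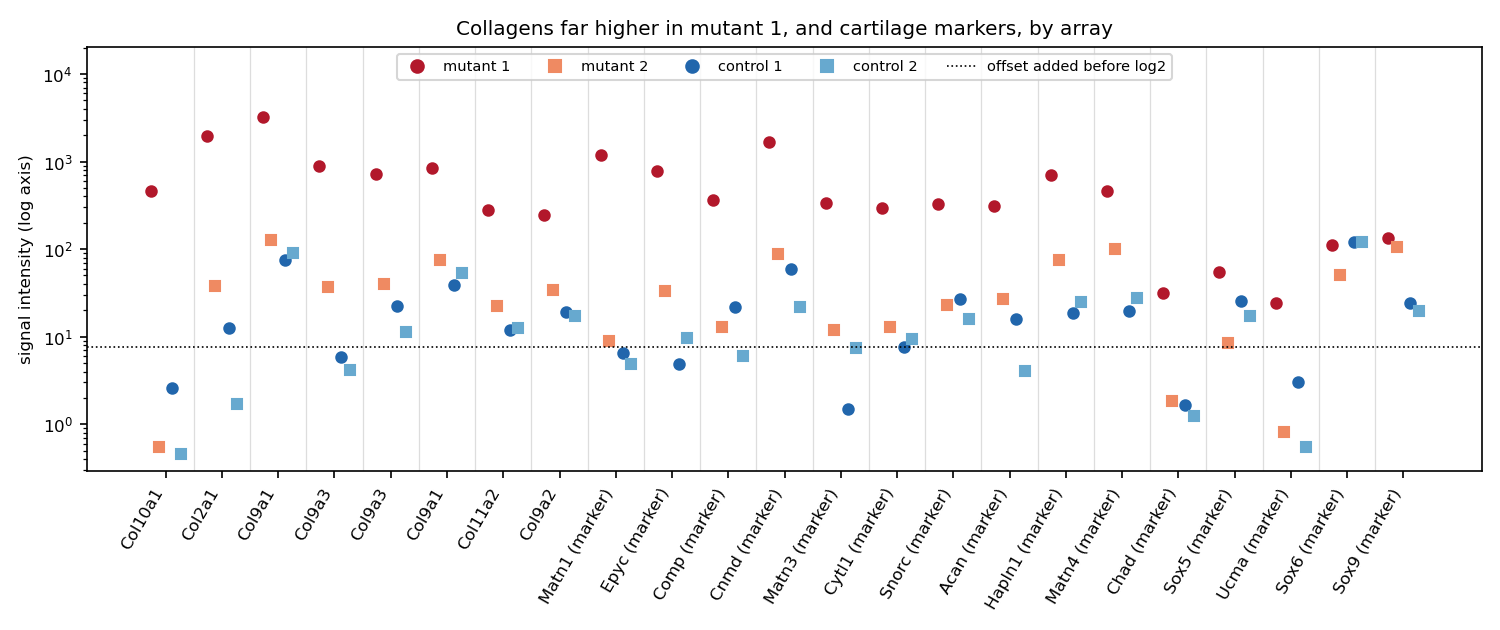
Signal intensity on a log axis in each of the 4 arrays for the 8 collagen probe sets far above in mutant 1 and for the 15 cartilage markers that are not collagens, each in order of the difference between mutants. Mutant 1 stands above every other array in all 8 collagen columns, and in most of them mutant 2 lies nearer to the controls.

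Of 43 genes that fold, process, cross-link or bind collagen, 38 were in the table and 36 were tested, and 3 rose and 2 fell, or 13.9%, against 8.74% of all genes. Pcolce2 and Tll1 passed the filter only through their mutant signals, so the share called is not read as a result. All 3 rises were among the genes that remove propeptides, a grouping with the same limit. Pcolce2, which enhances that cleavage, read 207 and 90.3 in mutants, against 16.3 and 9.16 in controls, with no overlap (log2 fold change 2.85, SE 0.39, limma adjusted p = 0.00932). Without mutant 1 its log2 fold change was 2.29 (adjusted p = 0.00691). Tll1, a proteinase related to Bmp1 that trims C-propeptides, read 52.8 and 62.4 in mutants and 13.02 and 8.84 in controls (log2 fold change 1.81, limma adjusted p = 0.00884), and was too dim to be tested without either mutant. Adamts3, which trims N-propeptides, read 147 and 104 in mutants and 53.7 and 43.8 in controls (log2 fold change 1.23, limma adjusted p = 0.0243). It lost its call without control 2, mutant 1 (log2 fold change 0.99) or the filter (adjusted p = 0.0594). Bmp1 itself averaged 296 ± 19.7 in mutants and 297 ± 25.9 in controls (SD, n = 2 each; limma adjusted p = 0.983).

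The genes that fell in this list were Creb3l1 and P4ha2. Creb3l1, a factor that drives collagen genes in mouse osteoblasts, read 101 and 80.0 in mutants, against 218 and 193 in controls. Both mutants lay far below both controls (log2 fold change -1.13, SE 0.17, limma adjusted p = 0.0126). On the poly-A scale its log2 fold change was -0.03 and did not pass. P4ha2, a prolyl hydroxylase subunit needed for stable helices, read 327 and 282 in mutants and 445 and 608 in controls (log2 fold change -0.76, limma adjusted p = 0.0493). It lost its call without control 2, mutant 1 or mutant 2, and at an offset of 1 (limma adjusted p = 0.0517). The same held without the filter (adjusted p = 0.0992) and with no variance trend (adjusted p = 0.0956). Its log2 fold change turns to 0.37 on the poly-A scale. Of the 10 prolyl hydroxylation genes 9 did not pass, nor did any of 5 lysyl hydroxylation and glycosylation genes, 4 cross-linking genes or 6 tested receptors. Plod2, a lysyl hydroxylase that marks sites of cross-links, read 821 and 469 in mutants and 336 and 226 in controls, without overlap, and did not pass (log2 fold change 1.15, limma adjusted p = 0.0648). Loxl3, a lysyl oxidase relative, read 247 and 156 in mutants and 100.1 and 57.3 in controls (log2 fold change 1.28, limma adjusted p = 0.0551). Serpinh1, the chaperone of nascent collagen, averaged 5062 ± 313 in mutants and 4657 ± 212 in controls (SD, n = 2 each; log2 fold change 0.12, limma adjusted p = 0.570).

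**Figure D5:**
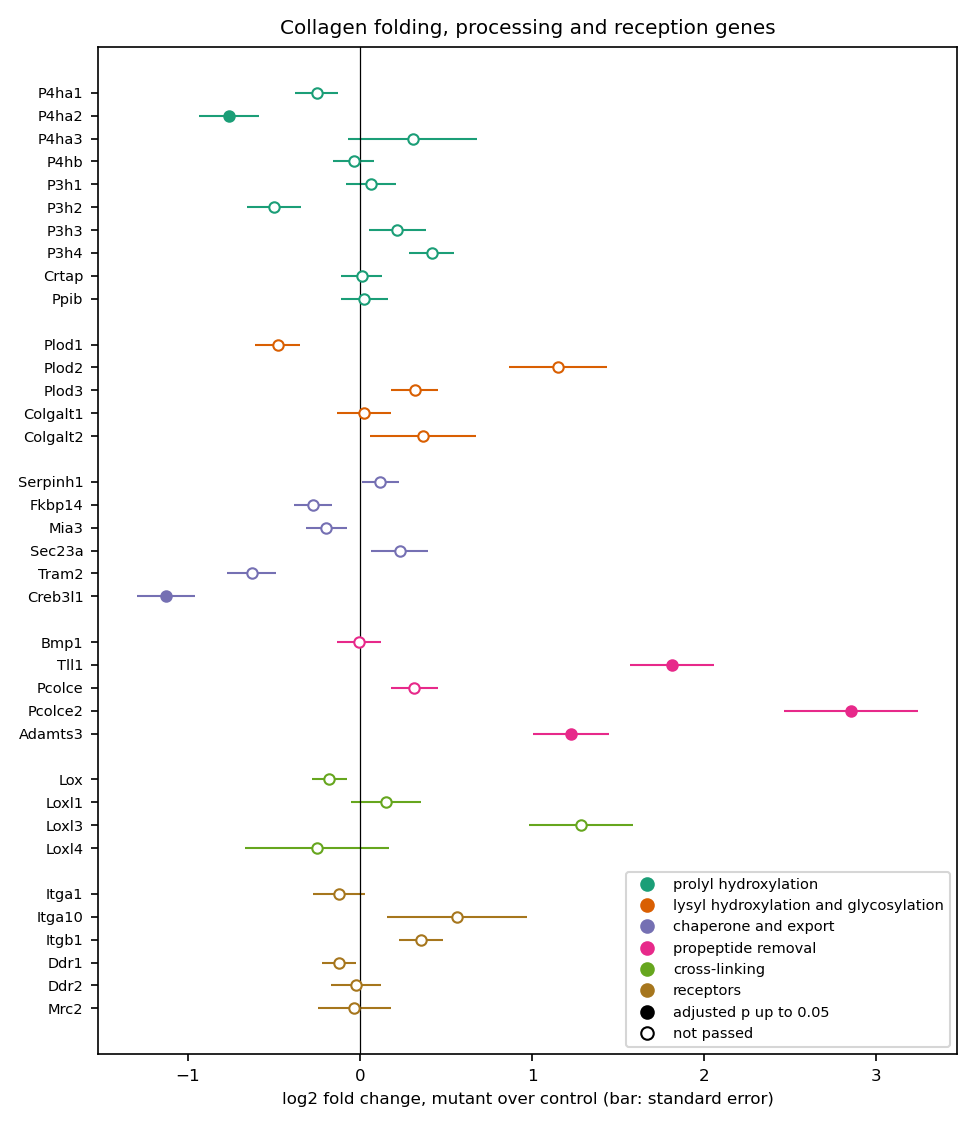
Log2 fold change, mutant over control, of the 36 tested genes of collagen folding, processing, cross-linking and reception, 1 probe set per gene, with bars for the standard error (2 arrays per group). Filled points passed the adjusted p of 0.05. All 3 that rose are genes of propeptide removal, of which Pcolce2 and Tll1 passed the filter only through their mutant signals.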

How the data were processed

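Whole-skin RNA of 2 mutant and 2 control E14.5 embryos was measured on 4 arrays. The authors deposited signal intensities, 1 for each probe set on each array, from GCOS and MAS5 per the submitters' processing notes (no versions or scaling target given in the sources used here). The authors' deposited table of changed probe sets gives fold as a ratio of mutant over control and, per the file headers, used GCRMA, Present calls in at least 2 of 4 samples, a parametric test at p 0.01 without correction and a 2-fold limit. Signals were not normalized again.

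Of 45101 rows, 64 are array controls. Probe sets were named from the platform annotation (9160 unnamed, 932 with several genes), and no member's symbol changed on update by gene identifier (GRCm38.p6 names). Values on log2(signal + 7.71) were fitted with limma 3.58.1 under R 4.3.3 (lmFit, then eBayes using a mean-variance trend, two-sided, Benjamini-Hochberg over 22519 probe sets with a mean of at least 31.1). Dim genes could pass this filter through 1 group. The probe set with the highest mean signal stood for a gene. Where 1 array was left out, the lone array of its group was taken to vary like the other group. The pipeline was tested on simulated data. Alternatives were the offset, the filter, the trend, quantile and poly-A scaling, the sample number as a block, and each array left out. The collagen classes, markers and biosynthesis genes were listed from general knowledge, and the members and lists were chosen with earlier results of these data known. The text names all collagen members called or far apart between mutants, the 2 brightest genes per class, all called biosynthesis genes, and of each marker list the called genes and the 2 brightest. Further members and marker genes were named after their values were seen. Nothing says whether the labels' sample numbers pair embryos.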

Additional observations from a re-analysis of the deposited data

How the results depend on the processing

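With 2 arrays per group the array left out decided many calls. The count of all called probe sets, 1583, was 880 without the filter, 828 with the filter at percentile 75, 20429 with poly-A scaling, 2443 with the sample number as a block, and 1007 to 2200 with 1 array left out. Collagen probe sets called higher, 5, numbered 3, 2, 49 and 9 in the same order, and 3 to 14 with 1 array left out. Collagen probe sets called lower, 5, numbered 1 without the filter, 1 with no variance trend, 0 with poly-A scaling, 10 with the block, and 1 to 3 with 1 array left out. Biosynthesis genes called, 5, numbered 3 without the filter, 1 at percentile 75, 31 with poly-A scaling, 8 with the block, and 2 to 7 with 1 array left out. The samples share only a number: deviations of same-numbered arrays from their group means correlated at r = 0.155. With 2 arrays per group the r of other numbers, -0.155, is that value with its sign turned, by construction. Collagen probe sets far above in mutant 1 numbered 14 at a log2 difference of 1 in place of 8. Poly-A scaling turned the log2 fold change to 0.94 and 0.50 for Col1a2, 1.03 for Col3a1, 0.64 for Col5a1, 1.15 for Col4a1, 1.15 for Col4a2, 0.55 for Col4a5, 0.77 and 0.56 for Col6a2, 0.88 for Col6a3, 0.37 for P4ha2 and 0.18 for Erbb3, by its construction as a shift of all values. The causes of the other changes were not tested. Offsets of 1 and 32, the robust trend and quantile normalization kept both collagen counts within 1.5-fold. Dim probe sets under the filter have no test, and the number of arrays limits precision.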
